A study of Mus musculus with 4 samples.

Results

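The clustered replication-dependent histone genes were taken as every gene of the deposited expression table whose symbol starts with Hist1h, Hist2h, Hist3h or Hist4h, which gave 68 of 25587 genes. By symbol, 6 belong to the linker histone H1, 19 to H2A, 18 to H2B, 12 to H3 and 13 to H4. The H2A genes include Hist1h2al, which GENCODE lists as a processed pseudogene. The Hist1 cluster on chromosome 13 holds 55 of them, Hist2 on chromosome 3 holds 10, Hist3 on chromosome 11 holds 2, and Hist4 on chromosome 6 is 1 gene.

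The values come from RNA-Seq of untreated wild-type mouse oocytes of the C57BL/6 background (C57BL/6Babr) at 4 stages. Non-growing oocytes (NGOs) were from mice at 5 days postpartum (dpp), growing oocytes from mice at 8 to 14 dpp (GO1) and 15 dpp (GO2), and fully grown oocytes (FGOs) from mice at 20 dpp. Each stage is 1 library made from a pool of oocytes after removal of ribosomal RNA, so no value below has a replicate check and no p value was computed. Library protocols differed, with dUTP used for NGOs and FGOs and ScriptSeq for both growing stages, so genes were compared inside each pair of libraries, and between those pairs stage and protocol cannot be told apart. Levels are the deposited RPKM, in which reads are divided by exon length and by a total for the library.

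In dividing cells these genes are transcribed in S phase, when newly copied DNA is packed into nucleosomes. Their mRNAs mostly lack introns and a poly(A) tail and end in a conserved stem-loop that is bound by SLBP, the stem-loop binding protein. Oocytes are arrested in meiosis and do not copy their DNA, but they are known to store histone mRNA and protein that the embryo uses after fertilisation.

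All 12 oocyte markers were in the table, and their summed RPKM was 7319 (NGOs), 5101 (GO1), 4862 (GO2) and 5048 (FGOs). Zp2, a zona pellucida gene, was the most abundant of them in every library, with 2261 in NGOs and 1052 in FGOs. From NGOs to FGOs 2 of the 12 were called higher (Oosp1 and Bmp15) and 4 lower (Zp2, Zp3, Figla and Ddx4) by the rule given below, beside 12 % and 12.4 % of all genes. The marker sums of other ovarian cell types were far lower. The 11 granulosa markers summed to 6.63 (NGOs), 12.1 (GO1), 16.5 (GO2) and 19.1 (FGOs), with Nr5a2 the most abundant and the granulosa factor Foxl2 below 0.1 in each library. All 4 granulosa markers that could be compared, Nr5a2, Cyp19a1, Kitl and Inha, were called higher from NGOs to FGOs, with a median change of 1.37. The markers below the filter went both ways. Wt1, Amhr2, Fst, Foxl2 and Inhba had changes of −1.12, −0.61, −0.57, −0.47 and −0.02, and Fshr and Amh had 0.77 and 0.55. Cyp19a1 had 0.518 (NGOs), 1.08 (GO1), 3.13 (GO2) and 6.08 (FGOs) and was called higher in both pairs, with 3.32 and 1.45. The 4 endothelial markers summed to 3.37, 7.22, 11.1 and 12.4 in the same order, led by Pecam1, which was called higher from NGOs to FGOs. Tek was within 2-fold in both pairs. Kdr and Cdh5 were below the filter and went both ways, with changes of 0.69 and −0.49 from NGOs to FGOs. Stroma, blood and leukocyte genes were highest in NGOs. The 7 stroma markers summed to 5.78 in NGOs, where Col1a1 led with 2.24, and to 0.211 (GO1), 0.238 (GO2) and 0.245 (FGOs) at later stages. Col1a1 and Col3a1 passed the filter given below only through NGOs, with 2.24 and 1.73 there and 0.0191 and 0.00898 in FGOs. Their calls as lower from NGOs to FGOs thus followed from the filter, and the other stroma markers were not compared. The 5 blood markers found in the table summed to 1.18 in NGOs and to at most 0.0230 in the other libraries, and the 5 leukocyte markers, led by Cd68, to 0.949 (NGOs), 0.549 (GO1), 0.594 (GO2) and 0.342 (FGOs). Whether RNA of such cells is part of the histone values, or of their changes, was not tested.

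Histone genes made up a measurable part of the summed RPKM of each library. Since reads are divided by exon length in RPKM, this is not their share of the reads. Their summed RPKM was 3009 (NGOs), 863 (GO1), 1118 (GO2) and 3438 (FGOs), which is 1.60 %, 0.495 %, 0.661 % and 1.83 % of the RPKM of all genes. The median member had 5.87, 1.81, 2.21 and 4.72, against a median over all genes of 0.153, 0.143, 0.166 and 0.173. Both dUTP libraries thus held more histone RPKM than both ScriptSeq libraries. Among the top 1 % of genes were 10 (NGOs), 3 (GO1), 4 (GO2) and 11 (FGOs) members.

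The RPKM values could be turned back into whole counts for the 68 members, which added up to 201244 (NGOs), 63895 (GO1), 149671 (GO2) and 234924 (FGOs). At least 3 counts were found for all 68 members in NGOs, GO2 and FGOs and for 66 in GO1. No member was listed at 0. Intervals given below are exact Poisson 95 % intervals and cover counting error only. The library totals that make the counts whole are larger than the numbers of mapped reads that the study gives, so a count cannot be taken as a fragment. The intervals are then too narrow, and 3 counts may be fewer fragments. The range among members was wide, from 0.0242 for Hist2h2be to 447 for Hist1h2al and Hist1h2bl in NGOs.

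A gene was compared within a kit when its mean RPKM over the pair was at least 0.5, and it was called higher or lower at a change of at least 2-fold on the log2(RPKM + 0.1) scale, which understates the change of low genes. From NGOs to FGOs, 5 of 54 members were higher and 7 were lower, beside 12 % and 12.4 % of 11291 genes, and 42 were within 2-fold. At 4-fold, 2 were higher and 0 lower, beside 4.52 % and 2.17 % of all genes. Their median change was −0.01 against −0.06 for all genes. The sign of the members' median turned to 0.05 when the libraries were scaled to each other by a trimmed mean or a median ratio, and to 0.01 with no filter on low values.

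From GO1 to GO2 the picture was different. Of 51 members compared, 12 were higher and 2 lower, beside 2.02 % and 0.773 % of 10868 genes, and 37 were within 2-fold. At 4-fold, 2 were higher and 0 lower, beside 0.221 % and 0.0368 % of genes. The median member changed by 0.38 and the median gene by 0.02, but the members' median reversed to −0.09 without members that share an identical protein. Over members with at least 50 % unique windows, which are stretches of 100 bases found in no other annotated gene, it was 0.24, and 6 of 30 were higher. Higher members were mostly H4 genes, 7 of the 12, with 4 H2B genes and 1 H3 gene, and no H1 or H2A gene was called. In pooled oocytes, fewer cells with a transcript and less of it per cell cannot be told apart.

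**Figure D1:**
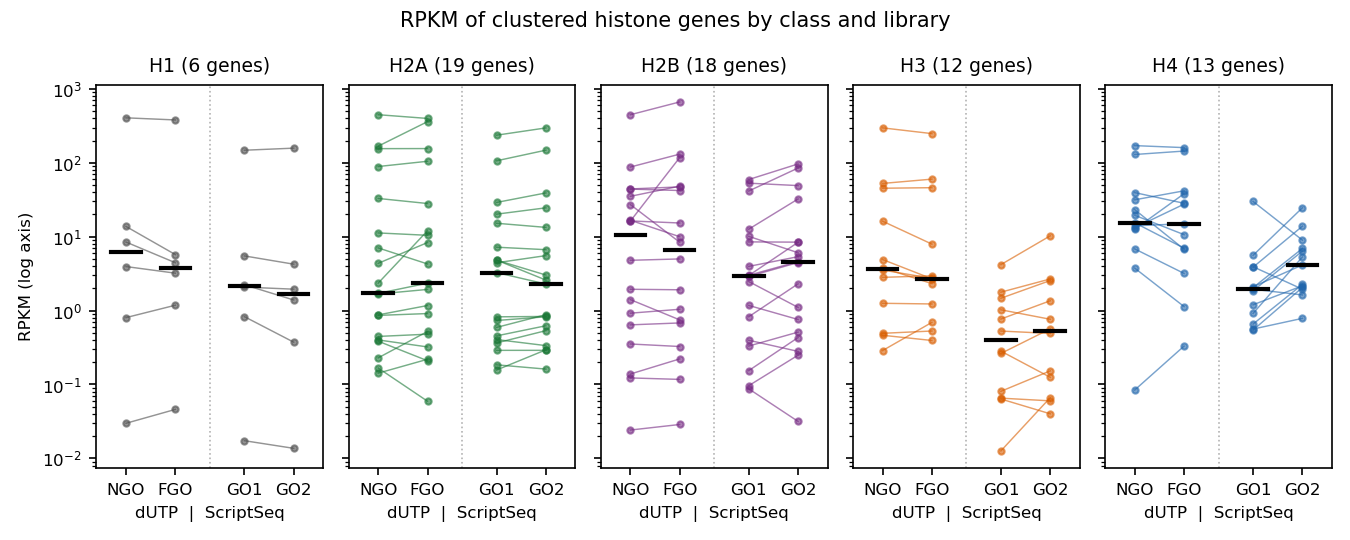
RPKM of each of the 68 histone genes on a log axis, with a panel per class; points of a gene are joined from NGO to FGO (dUTP libraries) and from GO1 to GO2 (ScriptSeq libraries), and black bars are class medians. The H4 median was 1.94 in GO1 and 4.14 in GO2, and the H3 points of GO1 and GO2 lie mostly below those of NGO and FGO.

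Linker histone H1 binds the DNA between nucleosomes. The 6 H1 genes summed to 433 (NGOs), 158 (GO1), 166 (GO2) and 394 (FGOs). Nearly all of this came from Hist1h1a, with 406 (NGOs; 95 % interval 401 to 410), 148 (GO1), 158 (GO2) and 380 (FGOs). Its share of the H1 sum was 93.8 %, 93.3 %, 95.2 % and 96.3 %, and its level differed by less than 2-fold within each kit, with changes of −0.10 and 0.09. Hist1h1c had 13.8 (NGOs), 5.49 (GO1), 4.24 (GO2) and 5.72 (FGOs). It was the only H1 gene called of the 5 compared, beside 12.4 % of all genes, lower in FGOs than in NGOs with a change of −1.25. Hist1h1d had 8.46, 2.08, 1.95 and 4.44 and stayed within 2-fold in both pairs. Hist1h1t, the linker histone of the testis, had 3 counts in NGOs (RPKM 0.0298, interval 0.00615 to 0.0872), 2 (GO1), 3 (GO2) and 5 (FGOs) in the others, so it was near the limit of detection throughout. The class median was −0.29 for the dUTP pair and −0.36 for the ScriptSeq pair.

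H2A pairs with H2B in the nucleosome core. The 19 H2A genes summed to 924 (NGOs), 435 (GO1), 546 (GO2) and 1090 (FGOs). Of 13 compared, 2 were higher in FGOs than in NGOs and none was lower, beside 12 % and 12.4 % of all genes, and the median change was 0.19, which reversed to −0.11 over the 5 genes with at least 50 % unique windows. From GO1 to GO2 none of 14 was called, beside 2.02 % (higher) and 0.773 % (lower) of all genes, with a median of 0.22. The class was led by genes with different courses. Hist1h2al had 447 (NGOs), 106 (GO1), 148 (GO2) and 398 (FGOs). It led the histone genes of NGOs with 447.0, next to Hist1h2bl with 446.7, and their intervals overlap. Hist1h2al lies apart from the other Hist1 genes at chr13:51202688-51203065, and GENCODE lists it as a processed pseudogene. Hist1h2aa, the testis-type form TH2A that is also known from oocytes, had 168 (NGOs), 236 (GO1), 296 (GO2) and 360 (FGOs). It was called higher from NGOs to FGOs with a change of 1.10, was within 2-fold from GO1 to GO2 with 0.33, and was the top histone gene of both growing stages, with 27.4 % and 26.5 % of all histone RPKM. Hist2h2aa2 came next in the class with 155 (NGOs), 29.0 (GO1), 39.1 (GO2) and 156 (FGOs), but it cannot be separated from a near-identical copy, as described below. Hist1h2ah had 2.35 (NGOs), 4.81 (GO1), 3.03 (GO2) and 12.0 (FGOs). It was higher in FGOs than in NGOs with a change of 2.31, although only 10.5 % of its 100-base windows are found in no other annotated transcript, so its level is uncertain.

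Among genes outside Hist1, Hist3h2a had 32.9 (NGOs), 15.2 (GO1), 13.4 (GO2) and 28.1 (FGOs), Hist2h2ac had 11.2, 7.20, 6.67 and 10.4, and Hist2h2ab had 7.05, 3.27, 2.29 and 4.27. All 3 stayed within 2-fold in both pairs. Hist3h2a overlaps Trim17. The libraries are strand-specific, but whether the strand was used in making the table is not given, so reads of overlapping genes may not have been kept apart.

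The 18 H2B genes summed to 744 (NGOs), 203 (GO1), 306 (GO2) and 1095 (FGOs). Hist1h2bl had 447 (NGOs), 41.5 (GO1), 84.9 (GO2) and 665 (FGOs), and was the most abundant histone gene of FGOs. It made up 60.0 % of the H2B sum in NGOs and 60.8 % in FGOs, and was called higher from GO1 to GO2 with a change of 1.03, just past the rule. Of its windows 37.9 % are unique and 49.3 % are shared with Hist1h2bq, so its level is uncertain. Hist1h2ba, the testis-type form TH2B, had 87.6 (NGOs), 59.3 (GO1), 96.4 (GO2) and 131 (FGOs) and led the class in GO1 and GO2. Hist1h2bc differed by less than 2-fold among all 4 libraries, with 44.0 (NGOs), 52.9 (GO1), 49.1 (GO2) and 42.1 (FGOs).

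Hist1h2bk had the largest change of any histone gene compared within a kit. Its RPKM was 16.2 in NGOs and 117 in FGOs, with intervals of 15.2 to 17.4 and 115 to 120. Among growing oocytes it was 12.6 (11.8 to 13.6) in GO1 and 32.4 (31.3 to 33.4) in GO2. The changes were 2.85 for the dUTP pair and 1.35 for the ScriptSeq pair, so that it was called higher in both. Of its windows inside the coordinates of the table, 19.3 % are unique. Hist2h2bb went the other way, with 27.2 (NGOs), 10.1 (GO1), 6.06 (GO2) and 8.40 (FGOs), and changes of −1.68 and −0.73. None of its GENCODE windows is unique, but its GENCODE transcript covers only 4.11 % of its coordinates in the table. The windows may thus not describe the sequence counted. With 2 other annotated genes, Gm20628 and Gm42743, overlapping it, its level is uncertain. Hist3h2ba had 44.2, 2.98, 8.39 and 47.1 and was called higher from GO1 to GO2 with 1.46, as was Hist1h2bq with 1.38 from 0.825 to 2.30. Hist1h2bb had 1.41 (NGOs), 2.47 (GO1), 1.10 (GO2) and 0.749 (FGOs) and was 1 of the 2 members called lower from GO1 to GO2, with −1.09. The H2B median was 0.07 for the dUTP pair and 0.60 for the ScriptSeq pair, and the latter was 0.21 over the 8 genes with at least 50 % unique windows.

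H3 and H4 form the tetramer at the centre of the nucleosome. The 12 H3 genes summed to 428 (NGOs), 10.5 (GO1), 19.1 (GO2) and 376 (FGOs), a far wider gap between the kits than in any other class. Hist1h3h had 297 in NGOs and 248 in FGOs, with intervals of 292 to 301 and 244 to 252, but 4.19 (3.69 to 4.73) in GO1 and 10.3 (9.69 to 10.9) in GO2. It was the top H3 gene of each library. Of 6 H3 genes compared from GO1 to GO2, Hist1h3h was the only one called, higher with 1.27, beside 2.02 % of all genes. However, 8.01 % of its windows are unique. Hist1h3f had 52.5, 1.47, 2.55 and 60.0 and Hist2h3c2 had 45.2, 1.77, 2.68 and 46.0. Both were within 2-fold in each pair and far higher in the dUTP pair. From NGOs to FGOs 1 of 10 H3 genes was called, lower, beside 12.4 % of all genes, and the class median was −0.14, or −0.52 over the 6 genes with at least 50 % unique windows. From GO1 to GO2 the median of the 6 genes compared was 0.66. The 12 genes code for 2 proteins of 136 residues. The 4 genes Hist1h3a, Hist1h3g, Hist1h3h and Hist1h3i code for the first and summed to 318 (NGOs), 5.30 (GO1), 11.8 (GO2) and 260 (FGOs). The other 8 genes code for the second and summed to 110, 5.22, 7.31 and 116. How reads divide between the forms is uncertain, since most of the first sum is from Hist1h3h, which shares 60.3 % of its windows with Hist1h3b, a gene of the second.

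All 13 H4 genes code for the same protein of 103 residues, so their RPKM were summed. This sum depends on the lengths used, which run from 312 bases for Hist1h4k to 2879 for Hist4h4. It was 480 (NGOs), 55.1 (GO1), 81.0 (GO2) and 484 (FGOs), which gives a ratio of 1.01 for the dUTP pair and 1.47 for the ScriptSeq pair. The similar sums of NGOs and FGOs were made up of genes that differed in direction. Of 12 compared, 2 were called higher and 4 lower, beside 12 % and 12.4 % of all genes, with changes from −1.77 to 1.59. Hist1h4i had 12.6 (NGOs), 2.10 (GO1), 4.14 (GO2) and 38.1 (FGOs), and was higher in FGOs with 1.59. Hist1h4d had 23.2 (NGOs), 29.9 (GO1), 8.98 (GO2) and 6.76 (FGOs), and Hist2h4 had 3.76, 3.92, 1.95 and 1.13. Hist1h4d was called lower in both pairs, with −1.77 and −1.73, and Hist2h4 was called lower from NGOs to FGOs with −1.64 and had −0.97 from GO1 to GO2. All 100-base windows of both genes are unique. Hist1h4f had 15.4, 0.545, 2.06 and 6.99, and was lower from NGOs to FGOs with −1.13 and higher from GO1 to GO2 with 1.74.

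The most abundant H4 genes of the dUTP libraries were within 2-fold between NGOs and FGOs and higher in GO2 than in GO1. Hist1h4j had 171 (NGOs), 3.86 (GO1), 13.9 (GO2) and 160 (FGOs), and Hist1h4c had 129, 5.59, 24.6 and 144. From GO1 to GO2 their changes were 1.82 and 2.12, with 81.0 % and 65.9 % of their windows inside the coordinates of the table unique. Hist4h4, the lone member on chromosome 6, had 31.5, 2.05, 6.92 and 41.7 and a change of 1.71, and Hist1h4h had 39.5, 1.86, 6.37 and 28.3 and a change of 1.73. With Hist1h4k at 1.64 and Hist1h4m at 2.41, 7 of 13 H4 genes were called higher from GO1 to GO2 and 1, Hist1h4d, was called lower, beside 2.02 % and 0.773 % of all genes. The class median was 1.64, and it was 1.71 over the 9 genes with at least 50 % unique windows. Hist1h4d alone held 54.3 % of the H4 sum in GO1, whereas Hist1h4c led in GO2 with 30.4 %. The leading H4 gene by RPKM was thus not the same in the growing stages. By counts it was Hist1h4d with 1492 in GO1 and Hist4h4 with 4807 in GO2, where Hist1h4c had 2347.

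**Figure D2:**
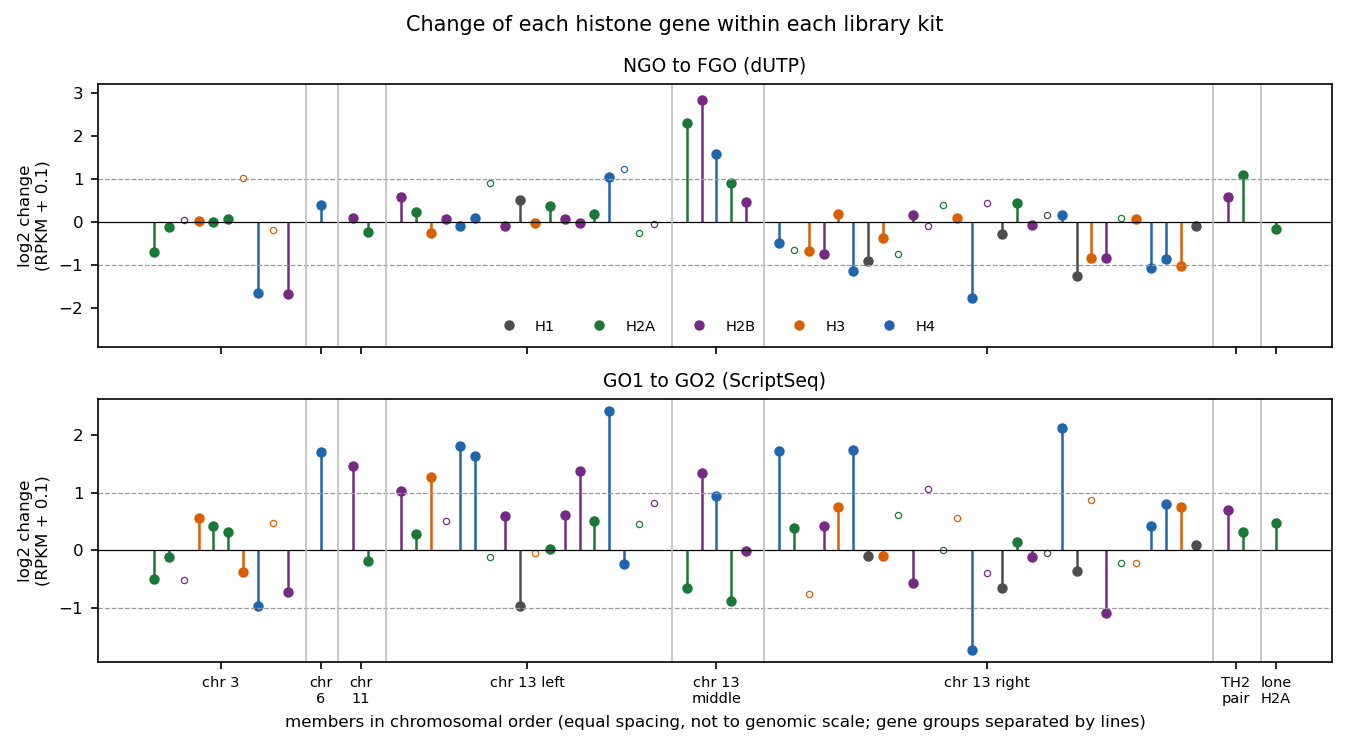
Log2 change of each member from NGO to FGO (top) and from GO1 to GO2 (bottom), in chromosomal order at equal spacing, coloured by class; filled points have a mean RPKM of at least 0.5 in the pair, open points do not, and dashed lines mark 2-fold. The middle group of chromosome 13 holds 5 changes above 0 in the top panel, up to 2.85, and most H4 points of the bottom panel lie above 1.

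Position in the clusters was then compared with the changes, for which the shares of all genes called were 12 % higher and 12.4 % lower from NGOs to FGOs and 2.02 % and 0.773 % between the growing stages. Gaps of over 100 kb divide the Hist1 genes into a left group of 18 genes (chr13:21715763-21837530), a middle group of 5 (chr13:22035113-22043676), a right group of 29 (chr13:23531044-23764414), the TH2A and TH2B pair (chr13:23933768-23934851), and Hist1h2al. The left group summed to 1059 (NGOs), 83.2 (GO1), 158 (GO2) and 1251 (FGOs). In it, 1 of 14 genes was called higher from NGOs to FGOs and none lower, and 6 of 13 were higher from GO1 to GO2 with none lower. Of these 6, only Hist1h4j has at least 50 % unique windows. Hist1h4m, the gene called higher from NGOs to FGOs, has 11.9 %. The middle group summed to 70.7 (NGOs), 32.9 (GO1), 50.5 (GO2) and 224 (FGOs). All 5 of its genes, of classes H2A, H2B and H4, had a change above 0 from NGOs to FGOs, 3 of them were called higher, and the median was 1.59, but Hist1h2ag, Hist1h2ah and Hist1h2bk have fewer than 50 % unique windows. The ratio of sums was 3.17, while from GO1 to GO2 it was 1.54 and the median was −0.01. The right group summed to 816, 264, 275 and 730. None of its 22 genes compared was called higher from NGOs to FGOs and 5 were lower, with a median of −0.58, and 3 were higher and 2 lower from GO1 to GO2. Scaling shifts of −0.06 for this pair were too small to turn that sign.

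The TH2A and TH2B pair summed to 255 (NGOs), 295 (GO1), 393 (GO2) and 491 (FGOs). It was the only gene group on chromosome 13 whose sum was no lower in the ScriptSeq libraries than in NGOs, and it made up 34.2 % and 35.1 % of histone RPKM in GO1 and GO2, against 8.49 % in NGOs and 14.3 % in FGOs. On chromosome 3 (chr3:96219865-96279001), the 10 Hist2 genes summed to 251 (NGOs), 60.9 (GO1), 65.2 (GO2) and 228 (FGOs), and the 2 members on chromosome 11 to 77.1, 18.2, 21.7 and 75.2. Of 7 Hist2 genes compared from NGOs to FGOs, 2 were lower and none higher, beside 12.4 % and 12 % of all genes. From GO1 to GO2 none of 8 was called, beside 2.02 % (higher) and 0.773 % (lower) of all genes.

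Side by side across kits, 25 of 55 members had a mean RPKM over NGOs and FGOs at least 4-fold above that of GO1 and GO2, beside 1.93 % of 11177 genes, and 39 of the 55 were higher in both dUTP libraries than in both ScriptSeq libraries, beside 33 % of genes. The 25 were unevenly spread over the classes, with 9 of 10 H3 genes, 10 of 13 H4 genes, 4 of 14 H2B genes, 2 of 13 H2A genes and 0 of 5 H1 genes. The filter here was a mean RPKM of at least 0.5 over all 4 libraries. Hist1h3b, Hist1h3c, Hist1h3g and Hist1h3i passed it only through the dUTP pair, with ScriptSeq means of 0.0518, 0.414, 0.204 and 0.0627. For these H3 genes a higher level in the dUTP pair thus followed from the filter. Hist1h3h had the largest log2 ratio of all 11177 genes, 5.22, followed by Hist1h3f with 4.74, and 7 of the 20 largest ratios belonged to members. Hist1h3b and Hist1h3g are among these 7, although the filter selected both on their dUTP values. The genes Hist1h2aa, Hist1h2ba and Hist1h2bc had ratios of −0.01, 0.49 and −0.24, and Hist1h4d and Hist2h4 had −0.37 and −0.25. Among other genes the ratio also differed with GC content. Outside the histones, genes with transcripts under 1 kb had a median ratio of −0.30 below 45 % GC (114 genes), 0.94 at 55 to 60 % GC (120 genes) and 1.41 above 60 % GC (44 genes), and 25 % of the last group were at least 4-fold higher in the dUTP pair. For transcripts of 1 kb or more the medians were −0.25, 0.73 and 0.92 in the same GC ranges. The median GC content of members was 53.1 % for H1, 64.2 % for H2A, 55.9 % for H2B, 59.9 % for H3 and 56.2 % for H4. Their ratios of summed RPKM between the pairs were 2.55, 2.05, 3.61, 27.1 and 7.08 in that order. What part base composition, length, poly(A) status, protocol and stage have in these ratios was not tested, and stage and protocol cannot be told apart.

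**Figure D3:**
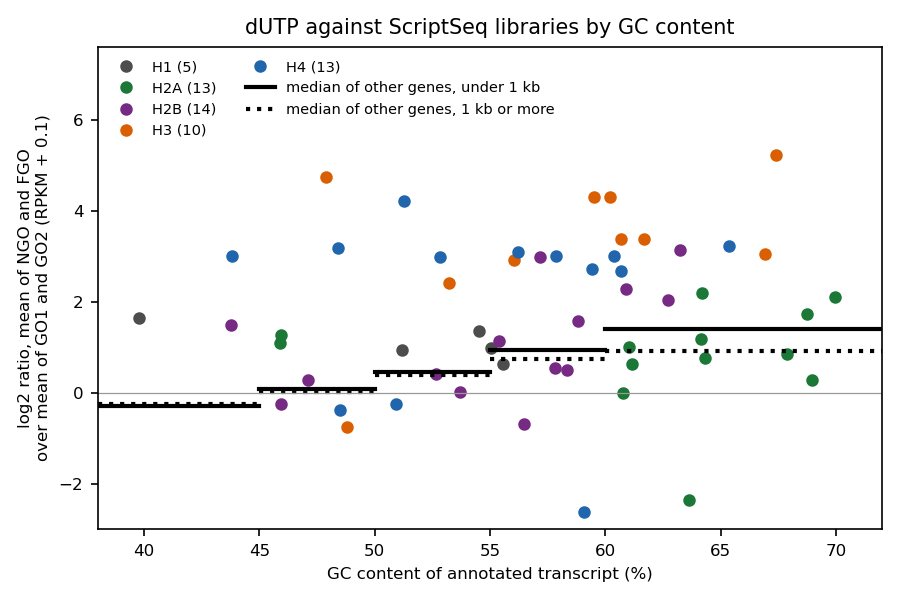
Log2 ratio of the mean RPKM of NGO and FGO (dUTP) over that of GO1 and GO2 (ScriptSeq) for each of 55 members, against the GC content of its longest annotated transcript; horizontal lines are medians of other genes in bins of GC content and transcript length. H3 and H4 members lie mostly above these lines, up to 5.22, and H2A members lie around them.

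Copies limit what can be read from single members. Hist2h2aa1 and Hist2h2aa2 have no unique window, and together they had 156 (NGOs), 33.5 (GO1), 44.6 (GO2) and 157 (FGOs). Hist2h2aa1 held 0.551 % of this sum in NGOs and 0.582 % in FGOs but 13.2 % in GO1 and 12.4 % in GO2. The division between these copies differed between the pairs of libraries, in which stage and kit cannot be told apart, so the values of the single genes are uncertain. Hist1h4m and Hist1h4n had a sum of 13.3, 2.86, 6.94 and 27.9, of which Hist1h4m held 99.4 %, 32.0 %, 76.5 % and 98.8 %. For the sum, the change from GO1 to GO2 was 1.25, against 2.41 for Hist1h4m alone, and from NGOs to FGOs it was 1.06. Hist2h3c1 and Hist2h3c2 summed to 45.5, 2.80, 3.44 and 46.7. Hist1h2bq and Hist1h2br summed to 2.06, 0.922, 2.55 and 2.03, with 1.37 from GO1 to GO2 for the sum, close to the 1.38 of Hist1h2bq.

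The 3′ stem-loop was searched as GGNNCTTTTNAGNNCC in the transcripts of GENCODE M21 (GRCm38). It was found in 44 of 68 members and in 89 of 55341 gene names in all, or 0.161 %. Of the 24 members without it, 11 have gene models that stop at the coding sequence. The letters of the stem differed between H4 and the other classes. All 33 members of H1, H2A, H2B and H3 with a match had GGCTC at its 5′ side, as in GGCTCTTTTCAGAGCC in 26 genes and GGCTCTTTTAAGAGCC in 6, whereas none of the 11 H4 members did, of which 7 had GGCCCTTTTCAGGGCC. The forms are shown for members of each class named above, with the match in capitals, because they are the part of these mRNAs that SLBP binds.

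Hist1h1c: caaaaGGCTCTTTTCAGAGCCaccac
Hist1h2bk: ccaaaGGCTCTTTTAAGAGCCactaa
Hist2h2ac: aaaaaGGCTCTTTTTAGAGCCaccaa
Hist1h3f: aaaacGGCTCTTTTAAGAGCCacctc
Hist1h4c: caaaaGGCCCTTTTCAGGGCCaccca
Hist1h4d: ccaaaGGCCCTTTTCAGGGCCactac
Hist1h4i: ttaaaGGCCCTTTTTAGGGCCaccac
Hist1h4j: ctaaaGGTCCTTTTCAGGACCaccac
Hist2h4: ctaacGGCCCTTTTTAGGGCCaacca

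Hist1h4c, higher from GO1 to GO2, and Hist1h4d, lower in both pairs, have the same 16 bases in the match. Hist1h4i and Hist2h4, which went in opposite directions from NGOs to FGOs, also share theirs. The GENCODE transcript, which for Hist1h4c and Hist1h4d is longer than the gene of the table, runs on for 770 bases after the match in Hist1h4d, 1257 in Hist2h4, 454 in Hist1h4c and 30 in Hist1h2bk.

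Promoters of 300 bases (250 before and 50 after the start) were taken from RefSeq (GRCm38.p6), in which 62 members had a sequence. Matches on either strand are descriptions of the letters and not of binding. The TATA motif TATAAA was found in 35 of 62 promoters, or 56.5 %, against 13.6 % of 32851 promoters of all genes. On the strand of the gene and 10 to 60 bases before its start, it was in 17, or 27.4 %, against 2.77 % of all promoters. A site between divergent genes is counted for both. CCAAT was in 53, or 85.5 %, against 37.4 %, and it divided the classes, being in 6 of 6 H1, 18 of 18 H2A, 16 of 16 H2B and 10 of 10 H3 promoters but in 3 of 12 H4 promoters. The octamer ATTTGCAT, known from H2B promoters, was in 13, or 21.0 %, against 1.74 %, and these were 7 H2A and 6 H2B promoters with none of H1, H3 or H4. Windows are printed with the match in capitals for Hist1h2bk and Hist1h2ah, the members with the largest changes from NGOs to FGOs, for the TH2A gene Hist1h2aa, and for Hist1h3h and Hist1h1a as the leading H3 and H1 genes.

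Hist1h2bk, octamer, chr13:22035781-22035808, plus strand: atttcactttATTTGCATacgaagttct
Hist1h2ah, octamer, chr13:22035781-22035808, minus strand: agaacttcgtATGCAAATaaagtgaaat
Hist1h2aa, octamer, chr13:23934303-23934330, plus strand: tgctgggtgcATGCAAATaaggggaatt
Hist1h2aa, TATA motif, chr13:23934395-23934420, plus strand: gccattagacTATAAAtaggcgtggt
Hist1h3h, CCAAT, chr13:21717565-21717589, plus strand: gccattttgaCCAATcagaactcgg
Hist1h1a, TATA motif, chr13:23763625-23763650, plus strand: agcactgctcTATAAAtactccgtgc

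Hist1h2bk and Hist1h2ah share this octamer, since they are transcribed away from each other from starts 177 bases apart, and both were higher in FGOs than in NGOs, but from GO1 to GO2 their changes were −0.65 for Hist1h2ah and 1.35 for Hist1h2bk. Such pairs were common, with 13 pairs of neighbours less than 1 kb apart and pointing away from each other, of which 12 join an H2A and an H2B gene. Their levels were seldom equal. The higher gene of a pair exceeded the lower by a median of 5.48-fold (NGOs), 3.52-fold (GO1), 3.26-fold (GO2) and 6.01-fold (FGOs). In the pair of Hist1h2ac and Hist1h2bc, 250 bases apart, the H2B gene was 25.8-fold, 72.1-fold, 59.6-fold and 17.9-fold higher in RPKM. The reads of Hist1h2ac were divided by 2482 bases, and the smallest fitting length of Hist1h2bc is 736. Such ratios thus depend on the lengths used. Both partners passed the filter in 8 pairs, and their changes had the same sign in 5 of these from NGOs to FGOs and in 6 from GO1 to GO2.

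Of 20 genes that make and process histone mRNA, all in the table, 19 were compared and 1 was called higher and 1 lower from NGOs to FGOs, beside 12 % and 12.4 % of all genes, with a median change of −0.11. None was called from GO1 to GO2, beside 2.02 % higher and 0.773 % lower of all genes. Slbp, whose protein binds the stem-loop, had 88.4 (NGOs), 164 (GO1), 158 (GO2) and 115 (FGOs) and was the most abundant of the list in each library. Npat, a coactivator of histone gene transcription, had 3.35, 4.61, 3.69 and 2.78. Lsm10 and Lsm11, which belong to the U7 particle that guides 3′ cleavage, had 31.2, 13.6, 18.2 and 45.7, and 3.55, 2.03, 2.50 and 5.54. Zfp473, a zinc finger protein of the same processing complex, had 14.9, 10.6, 11 and 8.14. None of these 5 genes was called in either pair. The genes called from NGOs to FGOs were Casp8ap2, which acts with NPAT, higher from 11.6 to 24.4 with 1.07, and Cstf2, a cleavage stimulation factor, lower from 11.5 to 4.93 with −1.20.

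The 22 genes of S phase and proliferation summed to 391 (NGOs), 381 (GO1), 374 (GO2) and 399 (FGOs). None was called in either pair, beside 12 % (higher) and 12.4 % (lower) of all genes in the dUTP pair and 2.02 % and 0.773 % in the ScriptSeq pair, and the medians were 0.06 and 0.06. Of 12 replication-independent histone genes, 11 were in the table, with sums of 836 (NGOs), 915 (GO1), 932 (GO2) and 1122 (FGOs). The oocyte linker histone H1foo led them with 621, 702, 740 and 899, which is above Hist1h1a in every library. H2afy, which codes for macroH2A, was the only one of the 11 called in either pair, lower from 4.43 in NGOs to 1.17 in FGOs with −1.83, and had 1.73 in GO1 and 1.24 in GO2.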

How the data were processed

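Each of 4 oocyte stages is 1 RNA-Seq library. The authors deposited linear RPKM, made after trimming with Trim Galore 0.2.8 and mapping to GRCm38 with TopHat2 2.0.9. The libraries are strand-specific, but the counting program, its strand setting and the gene annotation are not given in the sources used here. The table is named as read counts, but its values are not whole numbers and were used as RPKM.

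Members and gene lists were chosen with earlier results of these data known. Changes are differences of log2(RPKM + 0.1) over genes with a mean RPKM of at least 0.5 in the pair, with a rule of 2-fold and no test. The 2-fold rule was checked on simulated data with counting noise only. Analyses used Python 3.11.15, numpy 2.4.6, pandas 2.3.3, scipy 1.17.1 and matplotlib 3.10.9.

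Library totals were fitted so that RPKM times length was whole for single-exon genes (tolerance 0.05 of a count), which held for 100 %, 99.6 %, 99.7 % and 99.6 % of values above 0 in NGOs, GO1, GO2 and FGOs. The totals were 110595214, 126796745, 241385798 and 119629259, more than the mapped reads of the study, so a count cannot be taken as a fragment. At 3 counts, a gene with 1 kb of exons has an RPKM of 0.0271, 0.0237, 0.0124 and 0.0251. For Hist2h2bb, Hist1h2bq, Hist1h2be and Hist1h2bc the smallest fitting length was used, so their counts may be too small by a factor. Windows of 100 bases, proteins, stem-loops and GC content are from GENCODE M21, whose longest transcript differs by over 10 % from the length behind the RPKM for 20 of 68 members. No member passes to the other side of 50 % unique windows when only windows inside the coordinates of the table are used. A window counted as unique when found in no other annotated gene on either strand. All 68 members were matched to RefSeq genes by older symbols and position.

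Named genes are the 3 most abundant of each class, the testis-type genes, members outside Hist1 with an RPKM of at least 1, the 5 largest called rises and falls in each pair, list and marker genes past the rule, and Slbp, Npat, Lsm10, Lsm11 and Zfp473. Hist1h4k, Hist1h4n, Hist1h2bq, Hist1h2br, Hist1h3a, Hist1h3b, Hist1h3g, Hist1h3i, Hist1h2ac, H1foo, Foxl2, Cd68, the gaps of 100 kb, the windows, the copies and the motifs were chosen after values were seen. Of the marker and gene lists, H3f3c, Hbb-bs and Hbb-bt were not found in the table by these symbols.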

Additional observations from a re-analysis of the deposited data

How the results depend on the processing

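Counts of called members stayed within 1.5 times the reported ones under other pseudocounts, filters and scalings, except as follows. With a 4-fold rule, 2 members were higher and 0 lower in each pair. From GO1 to GO2, lower members numbered 4 with a pseudocount of 0.01, 1 with a pseudocount of 1 and 1 with a mean RPKM of at least 2, and the median change was 0.27 with a pseudocount of 1. Without members that share an identical protein, which removes all H3 and H4 genes, 3 were higher and 2 lower of 19 from NGOs to FGOs. In that set 2 were higher and 1 lower of 19 from GO1 to GO2, and the median reversed from 0.38 to −0.0896. With only members with at least 50 % unique windows, chosen after seeing the data, 2 of 34 were higher in FGOs than in NGOs and 6 of 30 in GO2 than in GO1, where the median was 0.24. In that set the H2A median from NGOs to FGOs reversed from 0.19 to −0.11, over 5 genes. The median of all members from NGOs to FGOs moved from −0.01 to −0.10 in that set. It was −0.11 without members that share an identical protein and −0.09 with a mean RPKM of at least 2. Without Hist1h2bl the summed RPKM was 2562 (NGOs), 821 (GO1), 1033 (GO2) and 2773 (FGOs), and with trimmed mean scaling it was 1101 in GO2 and 3589 in FGOs. With a floor of 10 counts, 64, 62, 65 and 65 members were detected. No paired analysis was possible because each stage has 1 library and the labels give no replicate numbers, and for the same reason no library could be left out.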
